A study of Neotoma stephensi and Rattus norvegicus with 6 samples.

Results

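The genes of the cell division cycle were examined in foregut tissue of woodrats and lab rats. The list held 52 genes, matched by their symbols, and all 52 were found among the 15481 genes of the count files. All 52 also passed the filter on low counts and were among the 12603 genes tested. The samples were 3 female Stephens' woodrats (Neotoma stephensi) caught in the wild, given juniper foliage and dissected soon after capture, and 3 female Sprague Dawley lab rats (Rattus norvegicus) from a commercial supplier, kept on chow for months in a room shared with other woodrats. A piece of the nonglandular forestomach wall (fornix ventricularis) was taken from every animal, and polyA RNA was sequenced. The woodrat foregut holds many more microbes than that of the lab rat, so species, diet, wild origin and microbes cannot be told apart in this comparison. The labels call all animals virgin, whereas the methods of the study leave this unknown for woodrats, and the ages were not given in the sources used here.

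Stratified squamous epithelium is renewed from its basal layer, where cells that carry keratins such as Krt15 divide and move upward. A cell enters the cycle when cyclin D and its kinases Cdk4 or Cdk6 release E2F factors, which switch on genes for DNA licensing, deoxynucleotide supply and replication. Later in the cycle Foxm1 and related factors switch on the genes of mitosis, so transcripts such as Mki67 and Top2a are found mainly in dividing cells and are used as marks of proliferation.

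Each library held between 5439642 and 7932637 counted reads, of which the 52 genes took from 3222 reads in woodrat 1 to 10297 reads in lab rat 1. Abundance is given below as CPM, the read count relative to the library total after TMM normalization, and 3 reads corresponded to between 0.355 and 0.586 CPM. The log2 ratio is that of woodrats over lab rats, so that positive values mean more in woodrats, and SE is its standard error. Fold values are the same fitted ratio on a linear scale, and a gene was called at a false discovery rate (FDR) below 0.01 in edgeR's quasi-likelihood test over all tested genes. Keratins Krt5, Krt14 and Krt13 were abundant in every library, and the 5 glandular stomach genes in the files summed to between 6.74 and 11.5 CPM per library. Among these 5, Muc5ac was called higher in woodrats, with 17, 12 and 33 reads against 0 in every lab rat (log2 ratio 7.32, FDR = 0.00305, edgeR). In lab rats 4 of the 5 genes had no read. Smooth muscle and leukocyte markers also differed between the species.

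Most genes of the cell cycle were less abundant in woodrats than in lab rats. Of the 52 genes, 46 had a negative log2 ratio (88.5%, against 49.0% of all tested genes), with a median of -2.09 against 0.03 over all tested genes. At an FDR below 0.01, 13 genes were called (25.0%, against 20% of all tested genes). Of these, 12 were higher in lab rats (23.1%), where 9.71% of all tested genes were called in that direction. Only Cdk6 was called higher in woodrats, where 10.3% of all tested genes were. At an FDR below 0.05, 33 genes passed, as did 39.9% of all tested genes, and 30 of them were higher in lab rats (57.7%, against 18.9% of all tested genes). For 36 genes (69.2%), all 3 lab rats lay above all 3 woodrats, a separation seen in 27.4% of all tested genes. The reverse separation, with all woodrats above all lab rats, was found for 5 genes (9.62%, against 28.8% of all tested genes). In a whole piece of stomach wall, fewer dividing cells and less RNA per dividing cell cannot be told apart. Summed smooth muscle markers were higher in every woodrat, with 39013 to 121070 CPM in woodrats and 10955 to 20351 CPM in lab rats, and summed leukocyte markers higher in every lab rat, with 8.20 to 22.5 CPM in woodrats and 36.0 to 76.4 CPM in lab rats. Their part in the difference of the cell cycle genes was not tested.

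**Figure D1:**
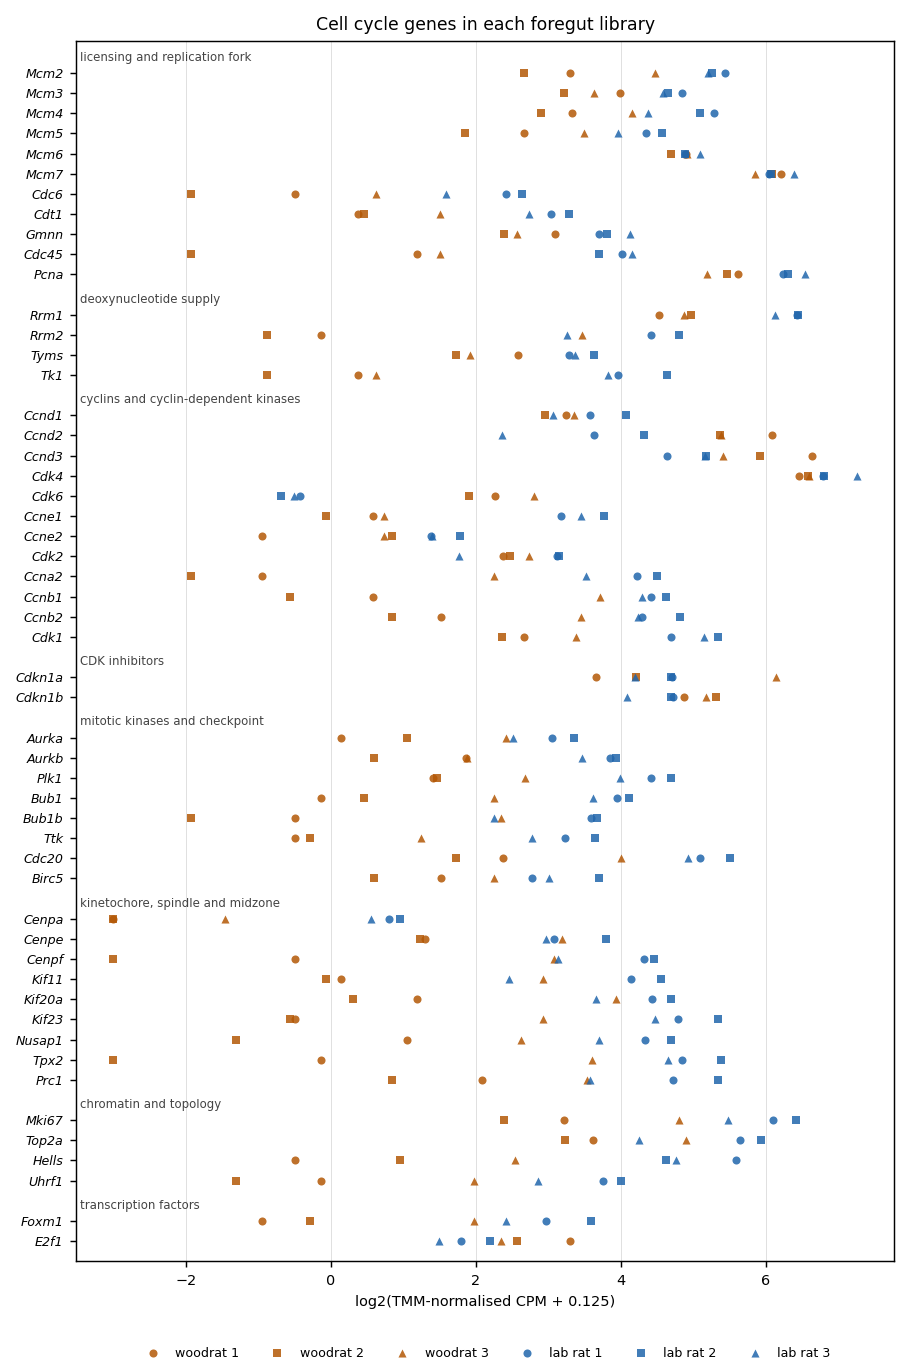
Abundance of the 52 cell cycle genes in each library, as log2 of TMM-normalised CPM plus 0.125, with woodrats in orange, lab rats in blue and a symbol for each animal. In most rows the blue points lie to the right, woodrat 3 is often the nearest woodrat to them, and Ccnd2, Ccnd3, Cdk6, Cdkn1b and E2f1 have the opposite order.

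The number of calls depended on single animals. Without woodrat 3, 35 genes were called, 34 of them higher in lab rats, and these included all 13 of the first call. Leaving out woodrat 1 or woodrat 2 gave 8 and 5 calls, and leaving out lab rat 1, 2 or 3 gave 3, 2 and 5. Tk1 and Ccne1 were called in all 6 of these fits. The median log2 ratio of the list stayed between -2.65 and -1.70 in them. DESeq2 called 33 genes, total-count scaling 7 (Tk1, Rrm1, Ccne1, Cdk1, Cdk6, Aurkb and Pcna), and scaling to basal keratinocyte markers 35. Basal marker scaling also moved the median log2 ratio of all tested genes, to -0.66. The share of all tested genes called in each of these fits was not counted, so these numbers cannot be set against it.

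**Figure D2:**
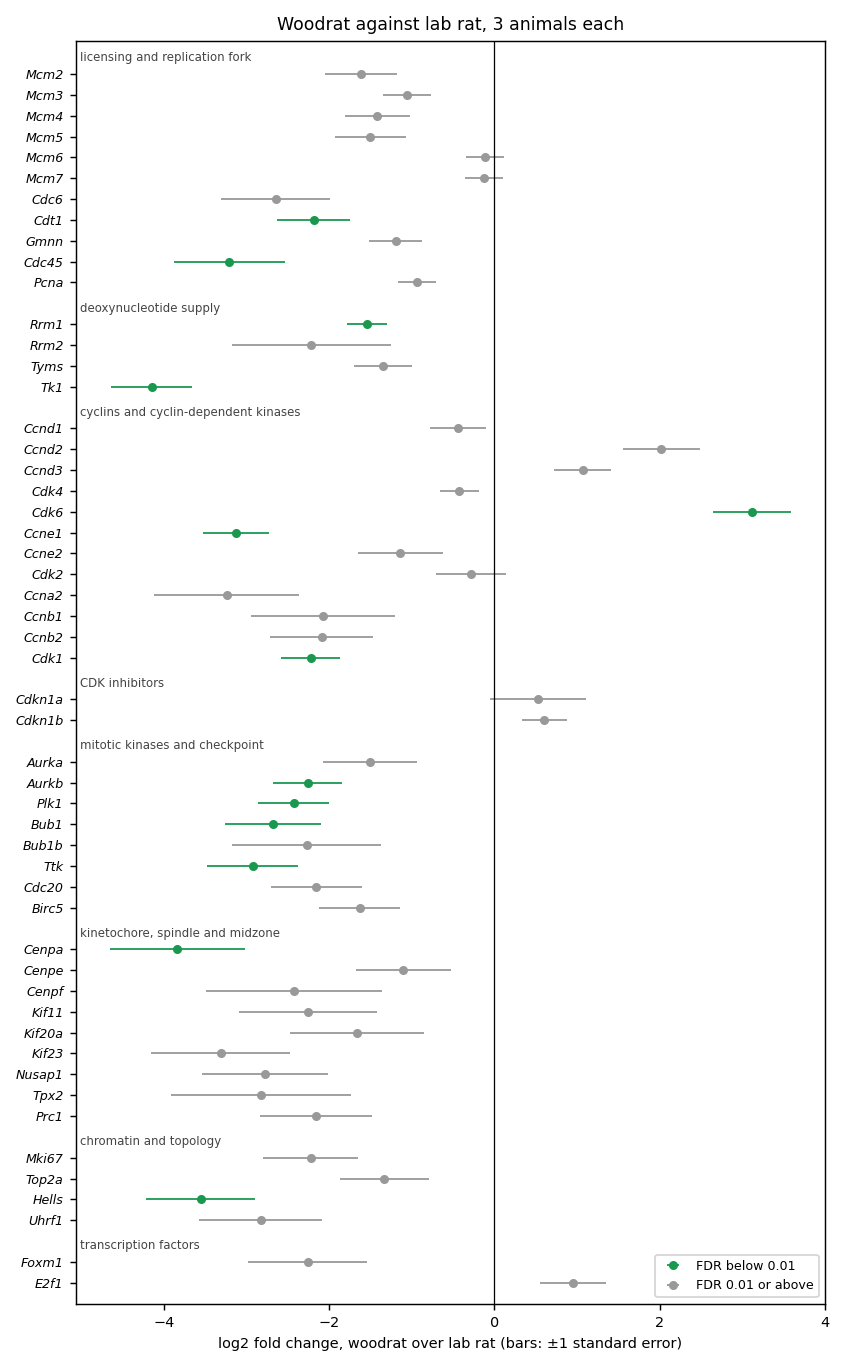
Log2 ratio of woodrat over lab rat for each of the 52 genes, 3 animals per species, with bars of 1 standard error and genes at an FDR below 0.01 in green. The 12 green points on the left run from -1.54 for Rrm1 to -4.15 for Tk1, and Cdk6 at 3.12 is the green point on the right.

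Licensing of replication origins and the replication fork were represented by 11 genes. All 11 had a negative log2 ratio, from -3.21 to -0.12, as did 49.0% of all tested genes. Cdt1 and Cdc45 passed the threshold (18.2%, against 9.71% of all tested genes called higher in lab rats). Cdc45 (ENSMUSG00000000028.13), part of the replicative helicase, had 2.15, 0.139 and 2.72 CPM in woodrats 1, 2 and 3 and 16.1, 12.9 and 17.7 CPM in lab rats 1, 2 and 3. The highest woodrat was thus well below the lowest lab rat, and the log2 ratio was -3.21 (SE 0.67, FDR = 0.00682, edgeR quasi-likelihood test). Cdt1, which loads the Mcm helicase onto origins, had 1.17, 1.25 and 2.72 CPM in woodrats and 8.07, 9.59 and 6.55 CPM in lab rats. Its log2 ratio was -2.19 (SE 0.44, FDR = 0.00579, edgeR). Cdc6, its partner in loading, had a mean of 0.715 ± 0.651 CPM across woodrats and of 4.74 ± 1.67 CPM across lab rats (SD, n = 3 each), without overlap, but the FDR of 0.0145 (edgeR) missed the threshold. Gmnn, which blocks Cdt1, also lay lower in every woodrat than in any lab rat, with a log2 ratio of -1.20 (FDR = 0.0187, edgeR).

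The Mcm2 to Mcm7 proteins form the core of the replicative helicase. Mcm2 had 9.77, 6.25 and 22.2 CPM in woodrats and 43.1, 38.0 and 36.8 CPM in lab rats, and Mcm3, Mcm4 and Mcm5 showed the same separation with log2 ratios from -1.50 to -1.06. None of these genes passed the threshold (FDR from 0.0198 to 0.0246, edgeR). Mcm6 and Mcm7 overlapped between the species. Mcm7 had 73.8, 68.1 and 57.7 CPM in woodrats and 66.1, 67.5 and 84.2 CPM in lab rats, a log2 ratio of -0.13 (SE 0.23). For Mcm6 the values were 29.7, 25.8 and 30.1 CPM in woodrats and 29.4, 29.4 and 33.9 CPM in lab rats. The difference between Mcm2 or Mcm5 and Mcm7 was not itself tested. Pcna, the sliding clamp of the polymerases, had a mean of 43.1 ± 6.45 CPM across woodrats and of 82.7 ± 9.33 CPM across lab rats (SD, n = 3 each), a log2 ratio of -0.94 (FDR = 0.0131, edgeR).

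Among the 4 genes of deoxynucleotide supply, Tk1 and Rrm1 were called higher in lab rats. Tk1 (ENSMUSG00000025574.12), the thymidine kinase of dividing cells, had 1.17, 0.416 and 1.42 CPM in woodrats, from 6, 3 and 12 reads. The lab rats had 15.5, 24.8 and 14.1 CPM, from 125, 150 and 73 reads. This was the most negative log2 ratio of the 52 genes, -4.15 (SE 0.49, FDR = 0.000856, edgeR), or 17.7-fold more in lab rats. Rrm1, the large subunit of ribonucleotide reductase, was steadier between animals, with 22.9, 31.1 and 29.3 CPM in woodrats and 86.2, 86.7 and 69.7 CPM in lab rats (log2 ratio -1.54, SE 0.24, FDR = 0.00218, edgeR). Its small subunit Rrm2, which is made mainly in S phase, had 0.781 and 0.416 CPM in woodrats 1 and 2 but 10.9 CPM in woodrat 3. That value was above the 9.44 CPM of lab rat 3 and below the 21.2 and 27.8 CPM of lab rats 1 and 2, and the FDR was 0.0970 (edgeR). Tyms, the thymidylate synthase, had 5.86, 3.19 and 3.67 CPM in woodrats and 9.68, 12.2 and 10.2 CPM in lab rats, a log2 ratio of -1.35 (FDR = 0.0170, edgeR) without overlap between the species.

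The 12 cyclins and cyclin-dependent kinases were divided by the stage of the cycle at which they act. Those of the G1 phase that sense growth signals gave mixed values. Cdk6 (ENSMUSG00000040274.10) had 4.69, 3.61 and 6.87 CPM in woodrats and 0.620, 0.496 and 0.578 CPM in lab rats, from 5, 3 and 3 reads. All lab rats were near the level of 3 reads, and the log2 ratio was 3.12 (SE 0.47, FDR = 0.00201, edgeR). Its partner Ccnd2 (cyclin D2) had 68.2, 41.4 and 41.8 CPM in woodrats and 12.3, 19.8 and 5.01 CPM in lab rats, also without overlap. The log2 ratio of 2.02 came just short of the threshold (SE 0.47, FDR = 0.0104, edgeR). Ccnd3 (cyclin D3) had 99.6, 60.5 and 42.4 CPM in woodrats and 24.8, 35.9 and 35.8 CPM in lab rats (FDR = 0.0371, edgeR). Ccnd1 (cyclin D1) overlapped between the species, with 7.63 to 10.1 CPM in woodrats and 8.28 to 16.7 CPM in lab rats. Cdk4, the other cyclin D kinase, had a mean of 93.4 ± 4.94 CPM across woodrats and of 125 ± 24.4 CPM across lab rats (SD, n = 3 each), and its FDR was 0.178 (edgeR).

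Of the 9 smooth muscle markers in the files, Myocd, Synpo2 and Lmod1 were called higher in woodrats (33.3%, against 10.3% of all tested genes), and the other 6 were not called, Smtn with overlap between the species. The 9 markers summed to 121070, 57589 and 39013 CPM in woodrats and to 10955, 18381 and 20351 CPM in lab rats, with Acta2 and Actg2 not in the files used here. Woodrat 1, with the highest muscle sum, was also the highest animal for Ccnd2 and Ccnd3 but not for Cdk6, which was highest in woodrat 3. Woodrats 2 and 3 had similar Ccnd2, at 41.4 and 41.8 CPM. Within lab rats, animal 3 had the highest muscle sum but the lowest Ccnd2, at 5.01 CPM. Lab rat 1 had the lowest muscle sum and the lowest Ccnd3, at 24.8 CPM. The part of muscle in these 3 genes was not tested.

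The cyclins and kinases that drive S phase and mitosis had negative log2 ratios, and Ccne1 and Cdk1 passed the threshold. Of all 12 cyclins and kinases, 16.7% were thus called higher in lab rats, against 9.71% of all tested genes. Ccne1 (ENSMUSG00000002068.15), the cyclin E1 of S phase entry, had 1.37, 0.833 and 1.54 CPM in woodrats and 8.94, 13.6 and 10.8 CPM in lab rats. The woodrats were close together and far below the lab rats, and the log2 ratio was -3.13 (SE 0.40, FDR = 0.00110, edgeR). Ccne2 had fewer reads, at most 20 in any library, and an FDR of 0.112 (edgeR). Cdk2, the kinase of cyclins E and A, overlapped between the species, with a mean of 5.67 ± 0.752 CPM across woodrats and of 6.87 ± 3.11 CPM across lab rats (SD, n = 3 each). Cdk1 (ENSMUSG00000019942.11), the kinase of mitosis, had 6.25, 4.997 and 10.3 CPM in woodrats and 25.8, 40.5 and 35.2 CPM in lab rats. It was called, at 4.67-fold more in lab rats (log2 ratio -2.22, SE 0.36, FDR = 0.00248, edgeR).

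The cyclins that activate Cdk1 varied widely between woodrats. Ccna2 (cyclin A2) had 0.391, 0.139 and 4.62 CPM in woodrats 1, 2 and 3 and 18.5, 22.5 and 11.4 CPM in lab rats. Ccnb1 (cyclin B1) had 1.37, 0.555 and 13.0 CPM in woodrats and 21.2, 24.6 and 19.5 CPM in lab rats, and Ccnb2 had 2.73, 1.67 and 10.8 CPM against 19.5, 28.1 and 18.7 CPM. In all 3 genes woodrat 3 stood between the other woodrats and the lab rats. The FDR was 0.0200, 0.0883 and 0.0272 (edgeR), with log2 ratios from -3.24 to -2.08.

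Both CDK inhibitors had positive log2 ratios that did not pass the test. Cdkn1a (p21), which is induced by p53 and at the exit from the cycle, had 12.5, 18.3 and 70.2 CPM in woodrats and 26.1, 25.8 and 18.3 CPM in lab rats (log2 ratio 0.53, SE 0.58, FDR = 0.492, edgeR). Without woodrat 3 the log2 ratio was -0.60. Cdkn1b (p27) had 29.3, 39.7 and 36.1 CPM in woodrats and 26.3, 25.8 and 16.9 CPM in lab rats, so that every woodrat was above every lab rat (log2 ratio 0.60, FDR = 0.107, edgeR). When libraries were scaled to basal keratinocyte markers, these log2 ratios became -0.37 for Cdkn1a and -0.15 for Cdkn1b.

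Of the 8 mitotic kinases and checkpoint genes, Aurkb, Plk1, Bub1 and Ttk were called higher in lab rats and the other 4 did not pass the test. With total-count scaling only Aurkb of these 8 genes was called, and Bub1 and Ttk were each called in 1 of the 6 fits that left out an animal. Plk1, the polo-like kinase of mitotic entry, had 2.54, 2.64 and 6.28 CPM in woodrats and 21.3, 25.8 and 15.8 CPM in lab rats (log2 ratio -2.43, SE 0.43, FDR = 0.00357, edgeR). Ttk (Mps1), the kinase that starts the spindle checkpoint, had 0.586, 0.694 and 2.25 CPM in woodrats and 9.31, 12.4 and 6.74 CPM in lab rats (log2 ratio -2.93, FDR = 0.00446, edgeR). In both genes the woodrats stayed well below the lab rats. Bub1, a checkpoint kinase of the kinetochore, had 0.781, 1.25 and 4.62 CPM in woodrats and 15.4, 17.2 and 12.1 CPM in lab rats (log2 ratio -2.68, SE 0.58, FDR = 0.00808, edgeR). Aurkb, the kinase of the chromosomal passenger complex, had 3.52, 1.39 and 3.55 CPM in woodrats and 14.3, 15.2 and 11.0 CPM in lab rats (log2 ratio -2.26, SE 0.42, FDR = 0.00420, edgeR). Neither gene overlapped between the species. The Aurkb partner Birc5 (survivin) had 2.73, 1.39 and 4.62 CPM in woodrats and 6.70, 12.9 and 7.90 CPM in lab rats (FDR = 0.0293, edgeR). Cdc20, which activates the anaphase-promoting complex, had 5.08, 3.19 and 16.0 CPM in woodrats and 33.9, 45.5 and 30.4 CPM in lab rats (FDR = 0.0157, edgeR). Both were separated between the species without a call. For Aurka, the kinase of the spindle poles, woodrat 3 had 5.21 CPM and lab rat 3 had 5.59 CPM, and for Bub1b (BubR1) woodrat 3 with 4.97 CPM was above lab rat 3 with 4.62 CPM.

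The kinetochore, spindle and midzone genes were those in which the woodrats differed most among themselves. Tpx2, which activates Aurka on the spindle, had 4, 0 and 102 reads in woodrats 1, 2 and 3, or 0.781, 0 and 12.1 CPM, and the 3 lab rats had 28.7, 41.7 and 25.0 CPM. In woodrat 2 a count of 0 allows up to 0.416 CPM. Cenpf, a kinetochore protein of late G2, had 3, 0 and 70 reads in woodrats and 160, 132 and 45 reads in lab rats. Woodrat 3 was thus close to lab rat 3, with 8.29 and 8.67 CPM, while the other woodrats had almost no reads. The log2 ratios of -2.83 for Tpx2 and -2.43 for Cenpf had SEs of 1.09 and 1.06 and were not called (FDR = 0.0681 and 0.0998, edgeR).

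Among the other genes of this group, the motor Kif23 and the bundling protein Prc1 act at the midzone of the dividing cell. Kif23 had 0.586, 0.555 and 7.46 CPM in woodrats and 27.7, 40.5 and 22.2 CPM in lab rats (log2 ratio -3.31, FDR = 0.0153, edgeR). Prc1 had 4.10, 1.67 and 11.5 CPM in woodrats and 26.2, 40.4 and 11.7 CPM in lab rats (FDR = 0.0349, edgeR). Nusap1, a microtubule-binding protein, had 1.95, 0.278 and 6.04 CPM in woodrats and 19.98, 25.6 and 12.9 CPM in lab rats, with a log2 ratio of -2.78 (FDR = 0.0204, edgeR). The motors Kif11 and Kif20a and the kinetochore motor Cenpe overlapped between the species, because woodrat 3 was above lab rat 3 in each of them. Cenpa, the histone of the centromere, was the only called gene of the group (11.1%, close to the 9.71% of all tested genes called higher in lab rats). It had few reads, 0, 0 and 2 in woodrats and 13, 11 and 7 in lab rats. The ratio of lab rat to woodrat in the pooled reads, unlike the fitted fold values, was 16.7. Its 95% counting interval ran from 4.24 to 144 (exact binomial interval on the pooled reads, covering counting error only). The fitted value for Cenpa was 14.3-fold (log2 ratio -3.84, SE 0.81, FDR = 0.00733, edgeR). Cenpa was called in 1 of the 6 fits that left out an animal.

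Mki67 (ENSMUSG00000031004.7), the antigen Ki-67 that coats mitotic chromosomes, had 9.18, 5.14 and 27.7 CPM in woodrats and 68.4, 85.4 and 44.7 CPM in lab rats. All lab rats were above all woodrats, with means of 66.1 ± 20.4 and 14.0 ± 12.0 CPM (SD, n = 3 each), and the log2 ratio of -2.23 did not pass the threshold (SE 0.57, FDR = 0.0164, edgeR). Top2a, the topoisomerase that disentangles chromosomes, had 12.1, 9.30 and 29.8 CPM in woodrats and 49.9, 61.2 and 18.9 CPM in lab rats. Here woodrat 3 was above lab rat 3, and the FDR was 0.0787 (edgeR). Hells (ENSMUSG00000025001.10), a chromatin remodeler needed for DNA methylation, had 0.586, 1.80 and 5.69 CPM in woodrats and 48.2, 24.6 and 27.0 CPM in lab rats. It was called, at 11.8-fold more in lab rats (log2 ratio -3.56, SE 0.66, FDR = 0.00427, edgeR). Uhrf1, which brings Dnmt1 to newly replicated DNA, had 0.781, 0.278 and 3.79 CPM in woodrats and 13.4, 15.9 and 7.13 CPM in lab rats (FDR = 0.0181, edgeR).

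The pair of transcription factors had log2 ratios of opposite sign, and neither passed the test. Foxm1, the factor of the mitotic genes, had 0.391, 0.694 and 3.79 CPM in woodrats and 7.69, 11.9 and 5.20 CPM in lab rats (log2 ratio -2.26, FDR = 0.0361, edgeR). E2f1, an activator of the S phase genes, had 9.77, 5.83 and 4.97 CPM in woodrats and 3.35, 4.47 and 2.70 CPM in lab rats (log2 ratio 0.95, SE 0.40, FDR = 0.0912, edgeR). Every woodrat was above every lab rat for E2f1, whereas the S phase genes Ccne1, Cdt1, Tk1 and Cdc45 were lower in every woodrat.

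The spread between animals was wider in woodrats. The SD of log2 abundance over the 3 animals had a median of 0.90 over the 52 genes in woodrats and 0.36 in lab rats, against 0.38 in both species over all tested genes. The woodrat SD was the larger for 45 of the 52 genes (86.5%, against 51.6% of all tested genes). Many of the 52 genes had few reads in woodrats, where counting error alone widens the spread of log2 values. The genes compared were not matched for abundance, and the part of counting error was not tested. Woodrat 3 was the highest woodrat for 41 genes (78.8%, against 37.9% of all tested genes), including all 8 mitotic kinase and checkpoint genes and all 9 kinetochore, spindle and midzone genes. The ratio of woodrat 3 to the mean of woodrats 1 and 2 had a median of 9.31 in the kinetochore, spindle and midzone group, 3.54 in the mitotic kinase and checkpoint group and 2.04 in the licensing and replication group. Lab rat 3 was the lowest lab rat for 38 genes (73.1%, against 46.1% of all tested genes). Woodrat 3 and lab rat 3 share only a number and were not paired by the design.

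The genes were next set beside Krt15, a keratin of basal epithelial cells. Krt15 had 3902, 7650 and 8678 CPM in woodrats and 3287, 3597 and 5542 CPM in lab rats, a log2 ratio of 0.70 (SE 0.46, FDR = 0.250, edgeR) that turned to -0.024 when libraries were scaled to basal keratinocyte markers. The species overlapped, because woodrat 1 lay between lab rats 2 and 3. Mki67, Top2a and the 17 mitotic genes summed to 51.6, 33.7 and 182 CPM in woodrats and to 411, 533 and 265 CPM in lab rats. The order of the animals was therefore not the same for both measures. Woodrat 2 had the second-highest Krt15 and the lowest mitotic sum of all animals, while lab rat 1 had the lowest Krt15 and the second-highest mitotic sum. Within woodrats, animal 3 was highest for both, and within lab rats animal 3 was highest for Krt15 and lowest for the mitotic sum. With 3 animals per species and the species apart in the mitotic sum, no correlation across libraries was computed. Reads of related keratins can be shared between genes, so the level of Krt15 is uncertain.

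**Figure D3:**
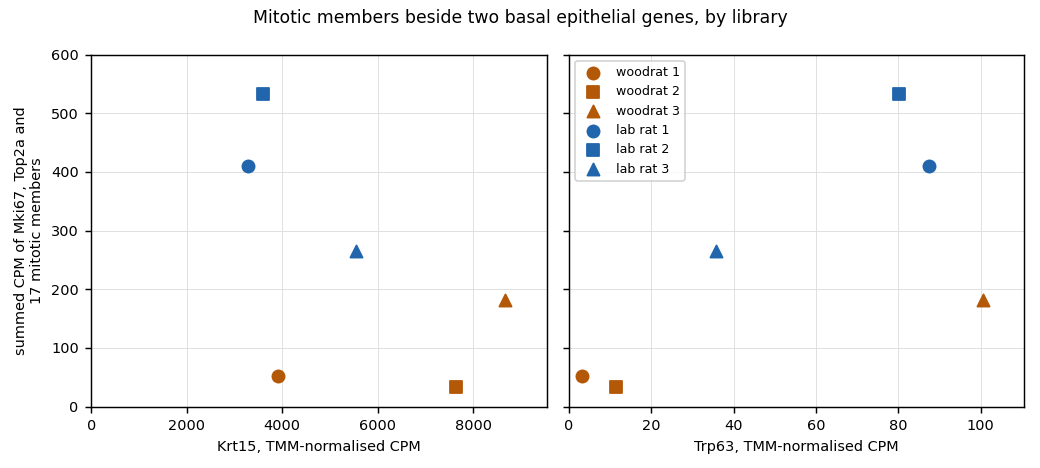
Summed CPM of Mki67, Top2a and the 17 mitotic genes (vertical axes) against Krt15 (left) and Trp63 (right), each point being 1 animal. The lab rats lie between 265 and 533 CPM and the woodrats between 33.7 and 182 CPM, whereas the Krt15 and Trp63 ranges of the species overlap.

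Read counts of the 52 genes were also divided by those of 13 basal keratinocyte markers in the same library. Per 100 marker reads, woodrats had 8.65, 4.85 and 6.51 reads of the 52 genes and lab rats had 23.9, 25.9 and 14.3. The lowest lab rat was above the highest woodrat, and the ratio of the means was 3.21. With Krt15 alone as the denominator the woodrats had 16.1, 6.94 and 9.20 and the lab rats 38.9, 40.6 and 19.9 reads per 100. Krt15 made up most of the marker sum, with means of 6743 of 10163 CPM in woodrats and 4142 of 6220 CPM in lab rats. These denominators are therefore not independent of each other. The ratio for Mki67, Top2a and the mitotic genes per 100 marker reads averaged 0.834 ± 0.599 across woodrats and 6.87 ± 3.09 across lab rats (SD, n = 3 each). The result depended on the marker. Trp63, the transcription factor of basal cells, had 3.32, 11.4 and 100.6 CPM in woodrats and 87.5, 80.1 and 35.8 CPM in lab rats, so woodrats 1 and 2 were far below the other 4 animals. With Trp63 as the denominator the species overlapped, and the mean log2 difference was 1.03 for the 52 genes and -0.49 for Mki67, Top2a and the mitotic genes. Single woodrats set these values. Woodrat 1 had only 17 Trp63 reads, and without it the difference was -0.068 for the 52 genes, while without woodrat 3 it was 2.22 for the 52 genes and 0.14 for the mitotic set. Krt5 was likewise lowest in woodrat 1, with 250, 513 and 794 CPM in woodrats and 686, 577 and 740 CPM in lab rats. Krt14 had 509, 714 and 797 CPM in woodrats and 338, 336 and 599 CPM in lab rats. Of the 13 markers, only Krt15 and Trp63 were used alone as the denominator. Whether the species stay apart with each of the others was not tested. None of the 13 markers was called higher in lab rats. Itgb1, Itga3 and Dst, which muscle cells also express, were called higher in woodrats (23.1%, against 10.3% of all tested genes). Without these 3 markers the mean log2 difference was -1.48, against -1.68 with all 13.

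Markers of other cells of the stomach wall were followed as well. The 9 leukocyte markers in the files summed to 8.20, 22.5 and 18.6 CPM in woodrats and to 76.4, 47.6 and 36.0 CPM in lab rats. Of the 5 that were tested, Ptprc, Itgam, Csf1r and Adgre1 were called higher in lab rats (80.0%, against 9.71% of all tested genes). Cd68, also tested, overlapped between the species (log2 ratio -0.09, FDR = 0.899, edgeR). Cd79a, not tested, had 5, 11 and 3 reads in woodrats and 2, 0 and 0 reads in lab rats. The 7 fibroblast markers summed to between 1177 and 2632 CPM in woodrats and between 2186 and 2804 CPM in lab rats, and the 5 endothelial markers to between 34.8 and 68.6 CPM and between 64.7 and 91.2 CPM. The 8 suprabasal keratinocyte markers summed to 24466, 39969 and 66465 CPM in woodrats and to 94462, 83591 and 111594 CPM in lab rats. Fibroblast and endothelial sums overlapped between the species, while the leukocyte and suprabasal sums were higher in every lab rat. Of the fibroblast markers, Dcn was called higher in lab rats (log2 ratio -1.41, FDR = 0.00892, edgeR), and all 7 had a negative log2 ratio. No endothelial marker was called, and 4 of the 5 had a negative log2 ratio. All lab rats lay above all woodrats for 2 fibroblast and 2 endothelial markers (28.6% and 40.0%, against 27.4% of all tested genes). The suprabasal genes did not all follow their sum. Ivl and Krtdap were called higher in lab rats (25.0%, against 9.71% of all tested genes). In contrast, Krt4 was called higher in woodrats (log2 ratio 3.34, FDR = 0.00626, edgeR) and Krt13 overlapped (log2 ratio 0.55, FDR = 0.411, edgeR). The part of the suprabasal cells was not tested either.

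The wider machinery of the cell cycle was followed in 3 further lists. Of 43 other replication genes tested, 5 were called higher in lab rats (11.6%, against 9.71% of all tested genes) and 3 higher in woodrats (6.98%, against 10.3%), and the median log2 ratio was -0.71. Those higher in lab rats were the primase subunit Prim1, with 5.66, 4.30 and 7.70 CPM in woodrats and 38.8, 39.0 and 43.5 CPM in lab rats (log2 ratio -2.77, FDR = 0.000696, edgeR), together with Cdc7, Gins1, Pola2 and Chaf1a. Those higher in woodrats were the clamp loader subunit Rfc1 (log2 ratio 1.78, FDR = 0.00152, edgeR) and the origin recognition subunits Orc2 and Orc4. Of 56 other mitosis genes tested, 6 were called higher in lab rats (10.7%, against 9.71% of all tested genes), and 51 had a negative log2 ratio, with a median of -1.97. Among those called, the kinetochore gene Spc25 had the most negative value, -3.84 (FDR = 0.00309, edgeR), followed by Tacc3, Fbxo5, Kif18a and Kif2c. Kif14, a motor of cytokinesis, was the only gene of that list called higher in woodrats, with 43.2, 14.4 and 14.3 CPM against 1.74, 3.31 and 0.963 CPM in lab rats (log2 ratio 3.55, FDR = 0.00323, edgeR).

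The 38 other regulators tested had a median log2 ratio of -0.09. Of these, 2 were called higher in lab rats (5.26%, below the 9.71% of all tested genes). Another 4 were called higher in woodrats (10.53%, close to the 10.3% of all tested genes). The checkpoint kinase Chek2, with 1.37, 0.972 and 3.67 CPM in woodrats and 19.4, 19.8 and 21.6 CPM in lab rats, was called higher in lab rats (log2 ratio -3.28, FDR = 0.00180, edgeR), as was the repressor E2f7. Called higher in woodrats were Rbl2 (p130), the retinoblastoma relative of resting cells, with 48.6, 52.6 and 54.6 CPM against 20.2, 17.7 and 10.8 CPM (log2 ratio 1.67, FDR = 0.00314, edgeR), and Tfdp2, Ccng1 and Mdm2. The last pair are targets of p53. In total 21 of the 137 other genes tested were called (15.3%, below the 20% of all tested genes), 13 higher in lab rats (9.49%, against 9.71% of all tested genes) and 8 higher in woodrats (5.84%, against 10.3%), a split that was 8 and 3 with total counts and 62 and 1 with scaling to basal keratinocyte markers. At an FDR below 0.05, 53 of the 137 genes were higher in lab rats (38.7%, against 18.9% of all tested genes). Another 16 were higher in woodrats, where 21.0% of all tested genes were. In the mitosis list alone, 31 genes were higher in lab rats at that threshold (55.4%). All lab rats lay above all woodrats for 68 of the 137 genes (49.6%, against 27.4%), and the reverse held for 20 (14.6%, against 28.8%). Without woodrat 3 there were 57 calls at an FDR below 0.01. Leaving out woodrat 1 or 2 gave 12 and 4 calls, and leaving out lab rat 1, 2 or 3 gave 5, 4 and 8. For the fits with other scaling or without an animal, the share of all tested genes called was not counted.

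**Figure D4:**
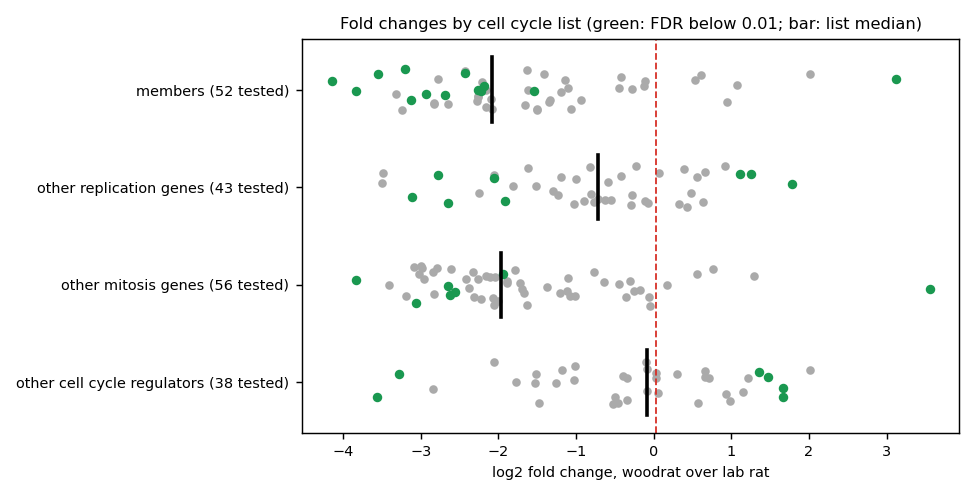
Log2 ratios of woodrat over lab rat for the 52 genes and the 3 wider lists, with genes at an FDR below 0.01 in green, the median of each list as a black bar and the median of all tested genes as a dashed line. The medians are -2.09 for the 52 genes, -0.71 for other replication genes, -1.97 for other mitosis genes and -0.09 for other regulators.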

How the data were processed

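PolyA RNA of 6 foregut samples was measured, 3 per species, with groups and replicate numbers from the sample titles. The authors used Trimmomatic for trimming, joined pairs by FLASH, and placed reads of both species on the coding transcripts of mouse (GENCODE M7) by cross_match. They deposited raw counts per mouse gene of reads with a unique best gene, counted by strand. The effect of mapping to mouse on the counts of each species was not tested here. Versions of these tools were not given in the sources used here, and genome positions were not used here.

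Genes at 1 CPM or more in at least 3 libraries were kept. TMM factors and the quasi-likelihood F-test (the method used before edgeR 4, prior count 0.125, species only, Benjamini-Hochberg adjustment) were run in R 4.3.3 with edgeR 4.0.16, and alternatives with DESeq2 1.42.0. The standard error is the log2 ratio divided by the square root of F. Totals per library were 5717389, 7077011 and 7932637 reads for woodrats and 7307287, 5439642 and 6213053 for lab rats. The rule for named genes took all 52 genes, Krt15, Krt5, Krt14 and Trp63, and from the other lists the called genes with the largest changes, up to 5 in each direction. Krt13, Smtn, Cd68 and Cd79a were added after their values were seen. The genes and lists were chosen with earlier results of these data known. Alternatives covered scaling, filter, test, replicate block and leaving out each animal. No pair of libraries agreed within sampling noise (chi-square per degree of freedom from 10.7 to 270). The test was tried on simulated data first.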

Additional observations from a re-analysis of the deposited data

How the results depend on the processing

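The counts of calls changed with the processing more than the direction did. For the 52 genes, total-count scaling gave 7 calls, scaling to basal keratinocyte markers 35, DESeq2's Wald test 33, an FDR below 0.05 gave 33, and leaving out 1 animal gave from 2 to 35. For the 137 other cell cycle genes the same settings gave 11, 63, 57, 69 and from 4 to 57 calls. At an FDR below 0.05, 39.9% of all tested genes passed. For the other settings the share of all tested genes called was not counted. Scaling to basal keratinocyte markers moved the median of all genes to -0.66 and that of the 52 genes to -2.95, or -2.29 relative to all genes, and turned Krt15 to -0.024, Cdkn1a to -0.37 and Cdkn1b to -0.15. Leaving out 1 animal moved Cdkn1a between -0.60 (without woodrat 3) and 0.92. The reads of the 52 genes per basal marker read moved from a log2 difference of -1.68 to -3.20 for Mki67, Top2a and the mitotic genes, and turned to 1.03 with Trp63 as the denominator, an alternative chosen after seeing the data. With that denominator, leaving out 1 animal gave from -0.068 (without woodrat 1) to 2.22 for the 52 genes and from -1.41 to 0.14 (without woodrat 3) for the mitotic set. The cause of these changes was not tested. Animals with the same replicate number did not deviate together (correlations -0.289, -0.0881 and -0.279, and 0 of 3 animals correlated best with its own number). With the replicate block 2 of the 52 genes (Tk1 and Ccne1) and 3 of the 137 other genes were called. Of 827 values of single genes under the alternatives, 677 kept their direction and side of the threshold and 3 turned. Some of these values were not free to change. The FDR below 0.05 reused the first fit, so no direction could turn there. A prior count of 2 enters the log2 ratio and not the test, and all 52 values under it counted as kept. Depth limited the genes with few reads, Cenpa with 2 reads over all woodrats and Cdk6 with at most 5 in a lab rat.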
